A study of Mus musculus with 6 samples.

Results

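Transcripts of the proteasome genes were compared between N2A cells depleted of Pou3f3 and control N2A cells. The genes were taken by name. Every array row with a single gene symbol that starts with Psma, Psmb, Psmc, Psmd, Psme, Psmf or Psmg was included, and where a symbol had several rows the row with the highest mean over the 6 arrays was used. This gave 50 genes of the 19938 symbols measured, and the rule uses names and mean levels, not differences between the groups.

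N2A is a mouse neuroblastoma line used as a model of neuronal progenitors. Knockdown cells were transiently transfected with 1.5 µg of a vector that expresses a short hairpin RNA (shRNA) against the class III POU transcription factor Pou3f3, and the control cells received a non-targeting vector. RNA was collected 2.5 days later, and 200 ng was labelled for Affymetrix Mouse Gene ST arrays, with 3 knockdown and 3 control arrays described as biological replicates. All 6 are transfections of 1 cell line with 1 construct per group, so that a p-value here reflects only how far such cultures spread. The labels name no selection of transfected cells, and a lower array value cannot be told apart from fewer cells carrying that transcript.

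The proteasome is the large protease that degrades ubiquitin-tagged proteins in the cytoplasm and nucleus. Its barrel-shaped core particle is built of alpha and beta rings and holds the catalytic sites, and its regulatory particle, made of a base with a ring of ATPases and a lid that removes ubiquitin, unfolds the substrate and feeds it into the core. In cells exposed to interferon, a set of alternative catalytic subunits forms the immunoproteasome, which favours peptides suited to presentation on class I molecules. Neurons depend on the proteasome for the turnover of synaptic and axonal proteins, and neuroblastoma cells, like other dividing cells, use it to degrade cyclins.

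Array values are given as log2 intensities, and each difference is the knockdown mean minus the control mean on that scale. A gene was called when limma gave a Benjamini-Hochberg adjusted p under 0.1 over all 21789 rows with 1 symbol and the fold was at least 1.3. Pou3f3 itself read 8.20, 8.09 and 8.35 in knockdown arrays 1, 2 and 3, against 8.37, 8.30 and 8.47 in control arrays. Its difference was -0.16 ± 0.08 (SE; limma adjusted p = 0.303, and 0.0880 in a fit with a block for the replicate number). The groups overlapped, but each knockdown value was lower than the control value of the same number. Of the 9 sympathetic neuroblast markers measured, 6 lay below 0, 4 of them without overlap between the groups. Of all 21789 rows, 12526 lay below 0, and 15.1% were lower without overlap. Dbh, which makes noradrenaline, fell, with 11.22 in knockdown and 12.39 in control arrays (limma adjusted p = 0.00471). Th, Chga and Gata3 differed by -0.38, -0.35 and -0.33 (limma adjusted p = 0.133, 0.0628 and 0.0484), and Th was also called with the block. Hand2 averaged 12.59 in knockdown and 12.55 in control arrays. The part of these marker differences in the proteasome results was not tested. None of the 5 immune, 5 fibroblast and 3 glial markers was called. The groups did not overlap for Cd3e, Col1a1, Col1a2 and Sox10, which were lower, and for Pdgfra, which was higher. Of all rows, 10.9% were higher without overlap. Cd3e lay in level class 4, Sox10 and Pdgfra in class 5, and Col1a1 and Col1a2 in class 6. The medians over all rows of these classes were -0.09, -0.08 and 0.04. Of the immune markers, the leukocyte gene Ptprc was the lowest, with averages of 6.19 in knockdown and 6.22 in control arrays. Cd74 was the highest, with 11.17 and 11.23.

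No proteasome gene was called in either direction, where 1.99% of all rows were (1.3% higher and 0.684% lower). None reached 1.3-fold, which 2.50% of all rows did. The differences ran from -0.19 for Psma1 to 0.28 for Psmc2, so the most divergent transcript of the complex differed by 1.22-fold. Of the 50 genes, 38 lay above 0 and 12 below, with a median of 0.06, whereas the median over all rows was -0.03 and 42.5% of them lay above 0. The comparison depended on the level of the row. In the highest 3 of 10 level classes the median over all rows was 0.03 and 59.4% of rows lay above 0. These classes held 43 of the proteasome genes, whose median was 0.07. Classes 8 and 9, counted from the lowest, held 6 and 16 of them, with medians of 0.15 and 0.13 against 0.06 and 0.04 for all rows. The single highest class held 21 of them, with a median of 0.03 for these 21 genes and of 0.0055 for all its rows, 51.6% of which lay above 0. At an unadjusted p under 0.05 limma gave 5 proteasome genes higher (Psmc2, Psmg4, Psmf1, Psmg2 and Psmb1) and 1 lower (Psma1), beside 2104 and 2223 of the 21789 rows.

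The precision of the arrays bounds what could have been missed. The 95% confidence interval of the difference lay wholly inside 1.3-fold in both directions for 39 of the 50 genes (78.0%), beside 77.7% of all rows. The 11 genes whose interval reached 1.3-fold were Psma2, Psma6, Psmb1, Psmc1, Psmc2, Psmc3, Psmc3ip, Psmd5, Psmd6, Psmf1 and Psmg2. In 40 of the 50 genes the 3 control arrays differed among themselves by more than the 2 groups differed on average (80.0%, beside 68.7% of all rows).

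**Figure D1:**
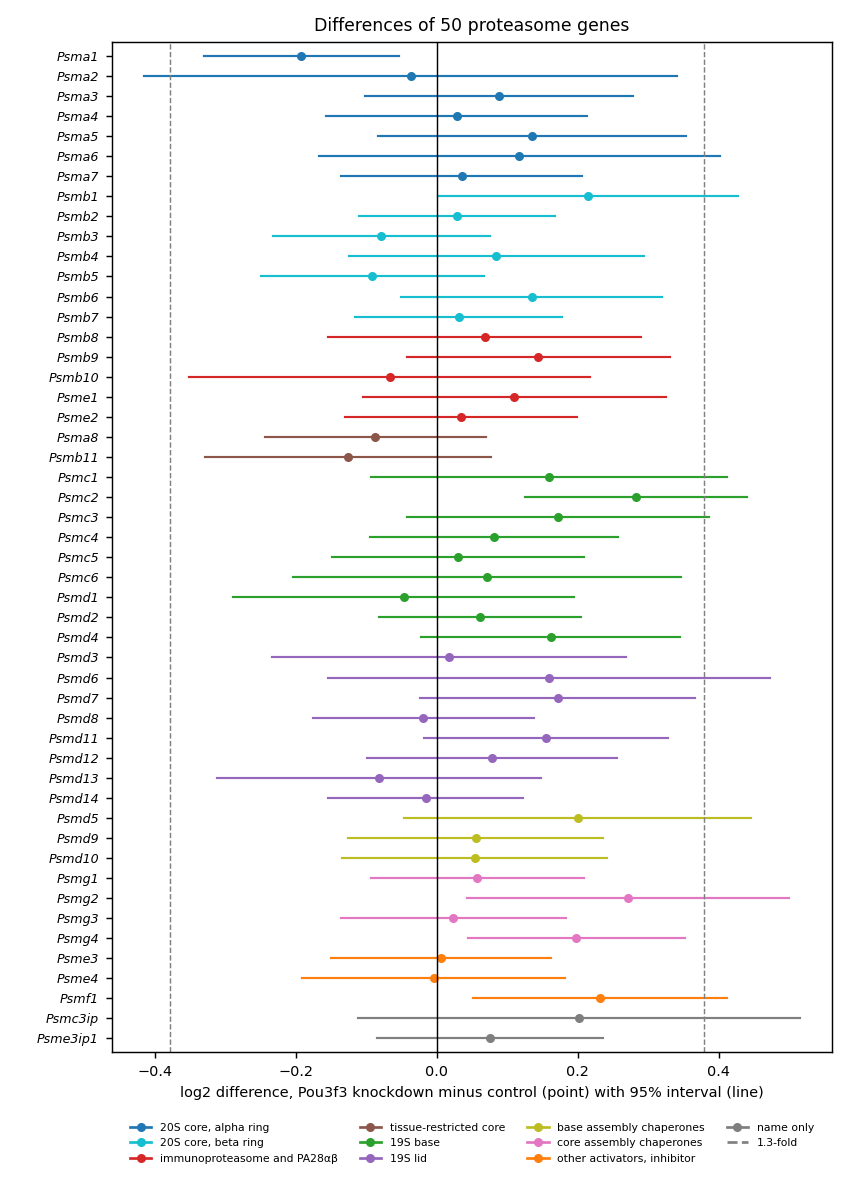
Log2 difference (knockdown minus control, horizontal axis) of the 50 proteasome genes, grouped by place in the complex, as points with 95% limma confidence intervals as lines; dashed lines mark 1.3-fold. Every point lies between -0.19 and 0.28, inside the dashed lines, and 39 of the 50 intervals do not reach them.

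The alpha rings form the ends of the core barrel and its gate. Of the 7 alpha genes, 5 lay above 0 and 2 below, with a median of 0.04 and a range from -0.19 to 0.14. Psma1 had values of 12.57, 12.55 and 12.63 in knockdown arrays, against 12.77, 12.76 and 12.79 in control arrays. All 3 knockdown arrays were below all 3 control arrays, and both groups were tight. The difference was -0.19 ± 0.06 (SE), or 12.5% lower, with a limma adjusted p of 0.145. It was the only proteasome gene whose knockdown arrays all lay below the controls. Psma2 showed the opposite kind of profile, with 11.45, 11.12 and 11.07 in knockdown arrays, against 11.66, 10.98 and 11.12 in control arrays. Array 1 was the high one in each group, and the difference of -0.04 was small beside that spread. The remaining alpha genes Psma3, Psma4, Psma5, Psma6 and Psma7 differed by 0.09, 0.03, 0.14, 0.12 and 0.04, with limma adjusted p from 0.453 to 0.867.

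The beta rings carry the proteolytic sites. Of the 7 constitutive beta genes, 5 lay above 0 and 2 below, with a median of 0.03 and a range from -0.09 to 0.21. The 3 catalytic subunits did not share a direction. Psmb5, the chymotrypsin-like subunit and the target of clinical proteasome inhibitors, read 13.90, 14.04 and 13.99 in knockdown arrays, against 13.99, 14.13 and 14.10 in control arrays. In each same-numbered pair the knockdown array was the lower one, but the groups overlapped (difference -0.09 ± 0.07, SE; limma adjusted p = 0.482). Psmb6, the caspase-like subunit, read 12.09, 12.30 and 12.30 in knockdown arrays, against 12.05, 12.04 and 12.20 in control arrays. Knockdown arrays 2 and 3 were above every control and array 1 was not (difference 0.13 ± 0.08, SE; limma adjusted p = 0.379). Psmb7, the trypsin-like subunit, read 12.10, 12.20 and 12.17 in knockdown arrays, against 12.07, 12.16 and 12.15 in control arrays, so that the groups were almost superimposed (difference 0.03 ± 0.07, SE).

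Among the beta subunits without a catalytic site, Psmb1 had the largest difference. It read 11.73, 12.04 and 11.95 in knockdown arrays, against 11.58, 11.80 and 11.70 in control arrays. Every knockdown array exceeded its same-numbered control, but knockdown array 1 fell below control array 2 (difference 0.21 ± 0.09, SE; limma adjusted p = 0.249). Psmb2, Psmb3 and Psmb4 differed by 0.03, -0.08 and 0.08. Over the 14 constitutive core genes the median was 0.03.

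The base unfolds substrates with a ring of 6 ATPases. All 6 ATPase genes had a positive difference. The median was 0.12, and the values ran from 0.03 for Psmc5 to 0.28 for Psmc2. Psmc2 read 10.941, 11.103 and 10.996 in knockdown arrays, against 10.719, 10.682 and 10.790 in control arrays. The lowest knockdown array was above the highest control. Psmc2 averaged 11.01 ± 0.08 in knockdown cells and 10.73 ± 0.06 in control cells (SD, n = 3 each), a difference of 0.28 ± 0.07 (SE; 95% confidence interval 0.13 to 0.44). Its limma adjusted p was 0.0819, and it was the only proteasome gene below 0.1 when the fold was not considered. Of all rows, 2.66% were higher and 1.79% lower by that rule (4.45% in either direction), so that 1 gene of 50 is a share no larger than the background. Leaving out any 1 of the 6 arrays gave differences from 0.24 to 0.32 with limma adjusted p from 0.103 to 0.276, and the value was 0.105 with limma's trend and robust options.

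The other ATPase genes were closer to their controls. Psmc1, Psmc3, Psmc4, Psmc5 and Psmc6 differed by 0.16, 0.17, 0.08, 0.03 and 0.07, with limma adjusted p from 0.338 to 0.854. Of the base subunits outside the ring, Psmd4, a ubiquitin receptor, differed by 0.16, Psmd2, a docking platform for ubiquitin shuttles, by 0.06, and Psmd1, its companion scaffold, by -0.05. For the whole base of 9 genes, 8 lay above 0 and the median was 0.08.

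The lid holds the deubiquitinating activity of the regulatory particle. It had 5 genes above 0 and 3 below among 8, and the median was 0.05. The range ran from -0.08 for Psmd13 to 0.17 for Psmd7. Psmd7, the inactive partner of the lid deubiquitinase, read 11.81, 12.10 and 11.85 in knockdown arrays, against 11.79, 11.77 and 11.68 in control arrays. The groups did not overlap, but knockdown arrays 1 and 3 were close to the controls and array 2 stood above them (difference 0.17 ± 0.09, SE; limma adjusted p = 0.300). Psmd14, the deubiquitinase itself, differed by -0.02 (95% confidence interval -0.15 to 0.12). The scaffold subunits Psmd3, Psmd6, Psmd8, Psmd11, Psmd12 and Psmd13 differed by 0.02, 0.16, -0.02, 0.15, 0.08 and -0.08, with Psmd11 the second lid gene whose groups did not overlap.

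Without overlap between the groups, 5 proteasome genes were higher (Psmc2, Psmg4, Psmd11, Psmd7 and Psmf1) and 1 was lower (Psma1). These are 6 of 50 genes, beside 26% of all rows (10.9% higher and 15.1% lower), a share not matched for level.

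**Figure D2:**
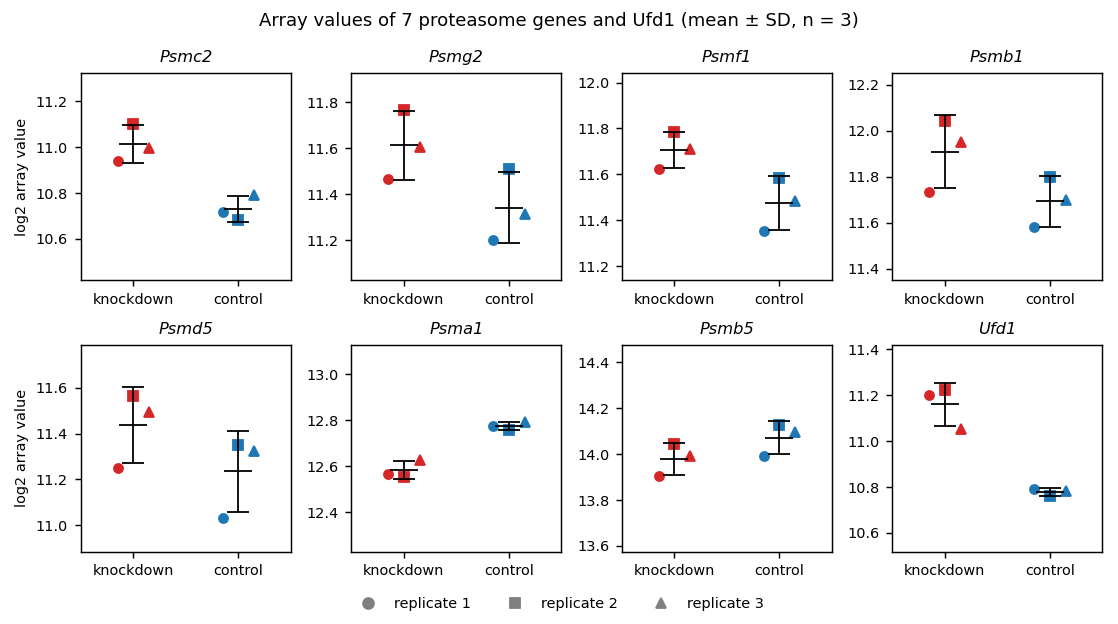
Log2 array values (vertical axis, one scale range per panel) of 7 proteasome genes and Ufd1 in the 3 knockdown arrays (left) and the 3 control arrays (right), with the mean and SD as black bars and marker shapes giving the replicate number. Psmc2, Psmf1 and Ufd1 separate upwards and Psma1 downwards, while Psmg2, Psmb1 and Psmd5 shift together in same-numbered arrays and overlap between groups.

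The immunoproteasome genes were near their control values. Psmb8, Psmb9 and Psmb10 encode the interferon-inducible catalytic subunits that replace Psmb5, Psmb6 and Psmb7, and Psme1 and Psme2 encode the alpha and beta subunits of the PA28 activator. The difference was positive for 4 of these 5 genes, the median was 0.07 and the range ran from -0.07 to 0.14. All 5 confidence intervals stayed inside 1.3-fold. Psmb8 read 9.04, 9.29 and 9.19 in knockdown arrays, against 8.92, 9.15 and 9.25 in control arrays. The lowest array of each group was array 1 (difference 0.07 ± 0.10, SE; limma adjusted p = 0.717). Psmb9 read 9.29, 9.45 and 9.60 in knockdown arrays, against 9.32, 9.28 and 9.31 in control arrays. The controls were within 0.02 (SD) of each other and the knockdown arrays were spread, with array 1 among the controls (difference 0.14 ± 0.08, SE; limma adjusted p = 0.355). Psmb10 read 10.03, 10.47 and 10.19 in knockdown arrays, against 10.09, 10.34 and 10.46 in control arrays. The groups covered nearly the same range (difference -0.07 ± 0.13, SE; limma adjusted p = 0.788). Psme1 and Psme2 differed by 0.11 and 0.03.

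Set beside each other, the medians were 0.03 for the constitutive core, 0.08 for the base, 0.05 for the lid and 0.07 for the immunoproteasome. All 4 medians were largest in the arrays numbered 2. Within that pair the medians were 0.16 for the core, 0.22 for the base, 0.15 for the lid and 0.16 for the immunoproteasome. Within the pair numbered 1 they were -0.03, 0.03, -0.02 and -0.03, and within the pair numbered 3 they were -0.0045, 0.06, 0.01 and 0.02 in the same order. The SD of the 3 pair medians was between 0.09 and 0.10 for each list, larger than any of the 4 medians. This SD describes the spread of single pairs and is not the error of a list median. The difference between lists was not tested.

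The activators outside the immunoproteasome and the inhibitor were split. Psmf1, which encodes the proteasome regulator PI31, read 11.62, 11.78 and 11.71 in knockdown arrays, against 11.35, 11.59 and 11.48 in control arrays. All knockdown arrays lay above all controls (difference 0.23 ± 0.08, SE; limma adjusted p = 0.168). The nuclear activators Psme3 (PA28 gamma) and Psme4 (PA200) differed by 0.0059 and -0.0041, the smallest differences of all 50 genes.

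Core assembly chaperones, the Psmg genes, help to build the alpha rings before the particle closes. Psmg1, Psmg2, Psmg3 and Psmg4 all had positive differences, and the median of these 4 genes was 0.13. Psmg2, after Psmc2 the gene with the largest difference, read 11.46, 11.77 and 11.61 in knockdown arrays, against 11.20, 11.51 and 11.31 in control arrays. The 3 same-numbered differences were nearly equal at 0.26, 0.26 and 0.29, although control array 2 was above knockdown array 1 (difference 0.27 ± 0.10, SE; limma adjusted p = 0.192). Psmg4 read 10.29, 10.42 and 10.37 in knockdown arrays, against 10.12, 10.14 and 10.23 in control arrays, without overlap (difference 0.20 ± 0.07, SE; limma adjusted p = 0.167). Psmg1 and Psmg3 differed by 0.06 and 0.02.

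The base chaperone genes Psmd5, Psmd9 and Psmd10 differed by 0.20, 0.06 and 0.05. Psmd5 read 11.25, 11.56 and 11.49 in knockdown arrays, against 11.03, 11.35 and 11.33 in control arrays. Array 1 was the lowest in each group, and each knockdown array exceeded its same-numbered control (limma adjusted p = 0.332).

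The core genes restricted to other tissues were Psma8, of the testis, and Psmb11, of the thymic cortex. Psmb11 read 7.04, 6.82 and 6.84 in knockdown arrays, against 7.01, 6.91 and 7.17 in control arrays, with overlap (difference -0.13 ± 0.09, SE; limma adjusted p = 0.452). Psma8 differed by -0.09. Both rows lay in classes 2 and 3 of the 10 level classes, counted from the lowest, where the medians over all rows were -0.06 and -0.08.

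A further 2 genes carry the name without belonging to the particle. Psmc3ip encodes a cofactor of meiotic recombination, and read 9.08, 9.34 and 8.92 in knockdown arrays, against 9.09, 9.03 and 8.62 in control arrays. Knockdown array 2 was the highest and control array 3 the lowest of the 6, and the other 4 overlapped (difference 0.20 ± 0.14, SE; limma adjusted p = 0.440). Psme3ip1, named for a protein that binds Psme3, differed by 0.08.

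**Figure D3:**
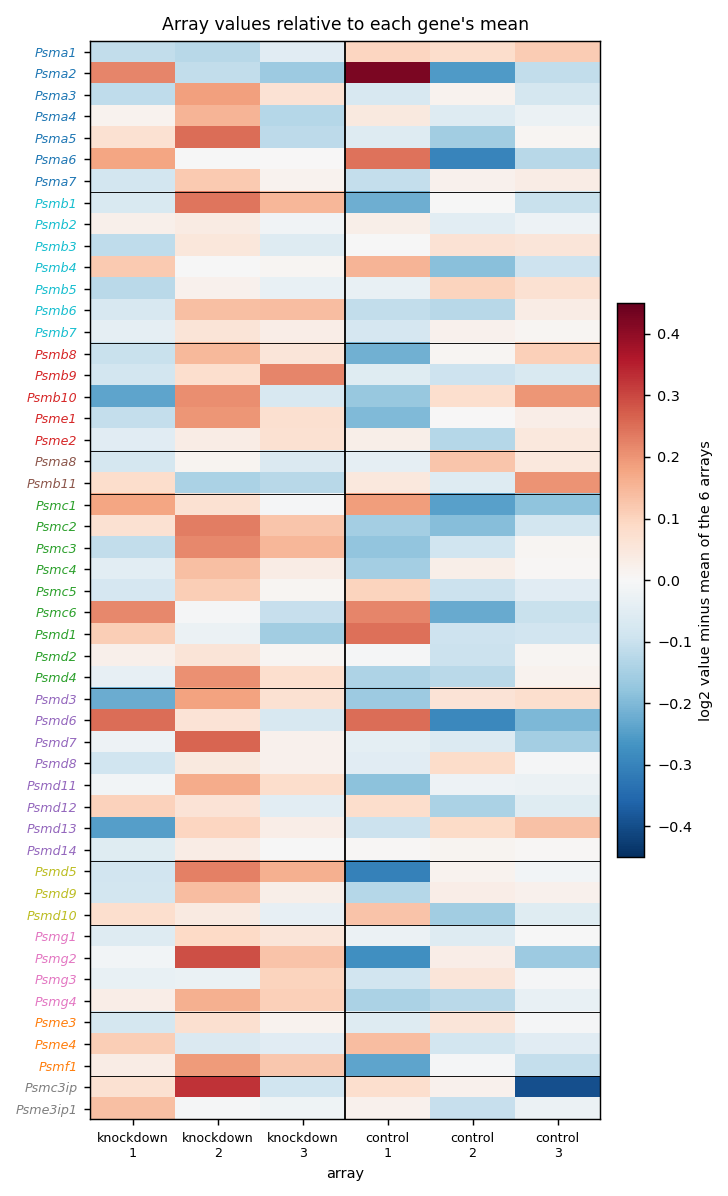
Each array value of the 50 proteasome genes minus that gene's mean over the 6 arrays (colour, log2), with knockdown arrays 1 to 3 on the left and control arrays 1 to 3 on the right. Psma2, Psma6, Psmc1, Psmc6, Psmd1 and Psmd6 are high in array 1 of both groups, and Psmb10, Psmd3, Psmd5 and Psmd13 are low there.

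In these genes the arrays numbered 1 stood apart from arrays 2 and 3 in a similar way in both groups. In array 1, 28 genes lay below the mean of arrays 2 and 3 in both groups, 14 lay above it in both, and 8 went opposite ways. Psma2 was higher in array 1 by 0.35 in knockdown and by 0.61 in control arrays, the largest such shift. Psmd6, Psmc6, Psma6, Psmc1 and Psmd1 were also high there. Psmb10 was lower in array 1 by the same amount in both groups, -0.31 in knockdown and -0.31 in control arrays, and Psmd5, Psmd3, Psmd13 and Psmb8 were also low. The shifts in the 2 groups correlated with r = 0.853 over the 50 genes and with r = 0.638 over all 21789 rows. The points share their arrays, and genes are not independent replicates. What the numbers 1, 2 and 3 stand for is not given in the labels.

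**Figure D4:**
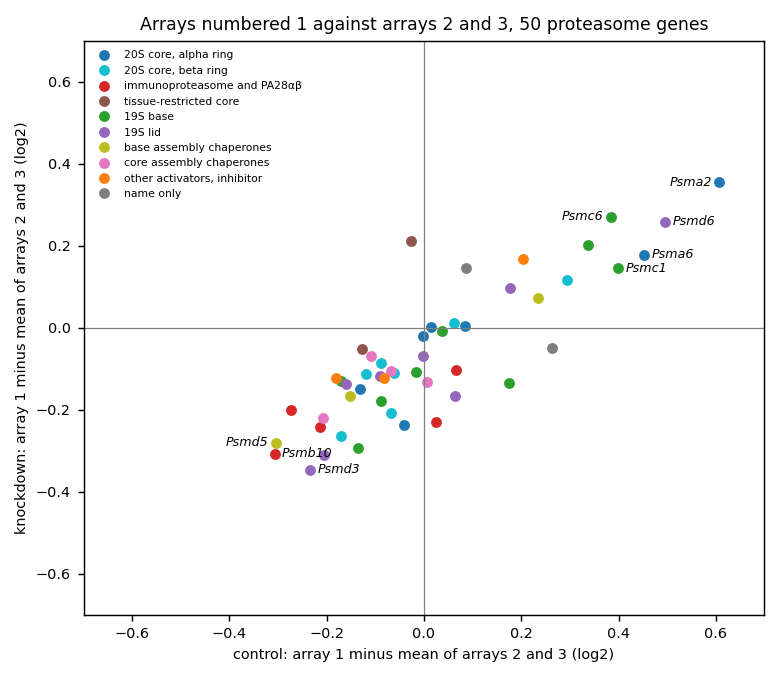
For each of the 50 proteasome genes, array 1 minus the mean of arrays 2 and 3 in knockdown (vertical axis) against the same in control (horizontal axis), in log2 units. Most points lie in the lower left (28 genes) or upper right (14 genes), with Psma2 at the upper end and Psmb10, Psmd3 and Psmd5 at the lower end.

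Because of this resemblance the fit was repeated with a block for the replicate number. In that fit 7 proteasome genes had a limma adjusted p under 0.1 and were higher, whatever the fold, and 1 was lower. Of all rows 12.3% were higher and 10.7% lower by this rule (23% in either direction), so that the share of proteasome genes was near the background for higher genes and below it for lower genes and for both directions together. The higher genes were Psmg2 (adjusted p = 0.0169), Psmc2 (0.0231), Psmf1 (0.0310), Psmb1 (0.0419), Psmd5 (0.0483), Psmg4 (0.0570) and Psmc3ip (0.0978), and the lower gene was Psma1 (0.0540). None was called at 1.3-fold with the block either, where 1.74% of all rows were called higher and 0.757% lower (2.5% in either direction). In all 3 pairs of same-numbered arrays, 18 of the 50 proteasome genes were higher and 4 were lower, where 23.8% and 29% of all rows were. These shares of all rows were not matched for level, on which the direction depended.

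Several proteasome genes have near-identical copies in the mouse genome, and 5 symbols had more than 1 row. The 3 rows of Psma3 differed by 0.08, 0.09 and 0.09 between the groups. The second rows of Psma5, Psmb3 and Psmd2 gave 0.15, -0.10 and 0.02, in place of 0.14, -0.08 and 0.06. The second row of Psmc1 gave 0.25 in place of 0.16, which is uncertain to that extent. Its unadjusted limma p was 0.0359, and its limma adjusted p with the replicate block was 0.0556. The row used had 0.186 and 0.156. In the second row of Psma5 the groups did not overlap, unlike in the row used. The counts of genes under these cut-offs and without overlap thus depend on the row chosen. A row shared by Psme2 and its copy Psme2b was not counted and differed by -0.05.

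Promoter sequences were examined for the antioxidant response element, the CCAAT box and the octamer bound by POU proteins. The antioxidant response element is the site through which Nfe2l1 raises proteasome genes together when the proteasome is inhibited. Whether the octamer controls proteasome genes was not tested. RefSeq windows of 250 bases before the start site (build GRCm38.p6) were found for 42 of the 50 genes, without Psma8, Psmb1, Psmb2, Psmb7, Psmc3, Psmd3, Psmd7 and Psmg2. A gene was counted when any of its windows held the motif. The core of the antioxidant response element, TGACNNNGC on either strand, was found for 5 of the 42 genes (11.9%). It was found for 11.52% of all 27025 genes with a window. The CCAAT box, bound by NF-Y, was found for 16 genes (38.1%, against 37.49% of all). The octamer ATGCAAAT, bound by POU proteins, was found for 1 gene (2.38%, against 1.81% of all). A match is a description of letters and not a measured binding site. The windows with a match are shown here because these genes carry letters of the response element or of the octamer, with the motif in capitals (on the opposite strand in Psmc6, Psmd12 and Psmd13) and up to 10 bases on each side within the window. They lie on the strand of the gene at chr14:54618024-54618052 (minus) for Psmb5, chr11:70525338-70525356 (plus) for Psmb6, chr14:45329587-45329615 (plus) for Psmc6, chr11:107479278-107479299 (plus) for Psmd12, chr5:123228149-123228177 (plus) for Psmd9 and chr7:140882144-140882162 (plus) for Psmd13. The first 5 hold the antioxidant response element core and the last holds the octamer.
Psmb5: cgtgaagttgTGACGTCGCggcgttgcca
Psmb6: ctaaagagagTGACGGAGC
Psmc6: ccagccagtaGCTAAGTCAggcattgctc
Psmd12: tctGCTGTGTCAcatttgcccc
Psmd9: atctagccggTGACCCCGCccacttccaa
Psmd13: gATTTGCATcacacctagt

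The 5 genes with the response element core differed by -0.09 (Psmb5), 0.13 (Psmb6), 0.07 (Psmc6), 0.08 (Psmd12) and 0.06 (Psmd9). Psmd13, with the octamer, differed by -0.08 (limma adjusted p = 0.673). None of the 6 was called.

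Genes that work with the proteasome but do not carry its name were taken from fixed lists, of which 31 were measured. One of them was called, higher, beside 1.3% of all rows called higher and 1.99% in either direction. Ufd1, a cofactor of the segregase Vcp that pulls ubiquitinated proteins out of complexes before degradation, read 11.20, 11.22 and 11.05 in knockdown arrays, against 10.79, 10.76 and 10.78 in control arrays. The controls agreed within 0.02 (SD) and every knockdown array was above them. Ufd1 rose by 0.38 ± 0.07 (SE), or 1.302-fold, with a limma adjusted p of 0.0339, which is at the fold threshold. The call was lost without knockdown array 1 (0.36, below the fold), knockdown array 2 (0.35), control array 2 (limma adjusted p = 0.151) or control array 3 (0.119), and with all rows of the value table tested (0.141). Its partners Vcp and Nploc4 differed by 0.05 and -0.06.

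The remaining lists held no call. Sem1 and Pomp, a small lid subunit and a core maturation factor, differed by 0.15 and 0.12, and neither overlapped between groups, as was so for 9 of the 31 genes and 26% of all rows. Sem1 read 10.89, 10.84 and 10.79 in knockdown arrays, against 10.74, 10.58 and 10.73 in control arrays (limma adjusted p = 0.266). Among 11 docked enzymes and ubiquitin shuttles the difference was positive for 9, and the median was 0.09. Uchl5, a deubiquitinase of the regulatory particle, had the largest difference among them, with 11.62, 11.64 and 11.50 in knockdown arrays, against 11.54, 11.20 and 11.36 in control arrays. Control array 1 was within the knockdown range (difference 0.22 ± 0.09, SE; limma adjusted p = 0.236, and 0.0846 with the replicate block).

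The 7 genes of proteasome transcription control had a median of -0.05, and Nfe2l1 differed by 0.0058. Ngly1, the glycanase that processes Nfe2l1, read 8.44, 8.49 and 8.13 in knockdown arrays, against 8.53, 8.55 and 8.63 in control arrays. Its groups did not overlap, and knockdown array 3 accounted for most of the difference (-0.22 ± 0.10, SE; limma adjusted p = 0.252). The 7 antigen processing genes had a median of -0.04. Nlrc5, the transactivator of class I genes, read 10.52, 10.27 and 10.53 in knockdown arrays, against 10.68, 10.69 and 10.62 in control arrays, without overlap (difference -0.22 ± 0.08, SE; limma adjusted p = 0.187, and 0.0690 with the replicate block). B2m, which every class I molecule carries, differed by -0.05.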

How the data were processed

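Transcript levels of 3 knockdown and 3 control N2A cultures were measured on Affymetrix Mouse Gene ST arrays. The deposited values are log2 intensities that the authors obtained by RMA background correction, quantile normalisation and a summary of the probes of each gene. The submitters' processing notes name RMA and limma and give no version. Quantile normalisation hides a change shared by most transcripts. Array medians over all rows ran from 7.90 to 8.01, and precision is limited by the small number of arrays. Of 35556 rows, 21789 had 1 symbol in the platform's gene table, 1621 had several and 12146 were not listed. No genome build of the array design was found in the sources used.

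The members and gene lists were chosen with earlier results of these data known. The 21789 rows were fitted in R 4.3.3 with lmFit and eBayes of limma 3.58.1, two-sided, without a block or variance filter, with Benjamini-Hochberg adjustment. The cut-offs (10% FDR, 1.3-fold) follow the methods of the study. Deviations of same-numbered arrays from their group means correlated with r = 0.638, 0.307 and 0.289 for numbers 1, 2 and 3 over all named rows. Knockdown array 3 with control array 2 gave 0.254, and knockdown array 2 with control array 3 gave 0.216. These values set array 1 apart but hardly separate the pairing of numbers 2 and 3 from the crossed one. The numbers were taken as pairing the arrays, and the fit with the replicate number as a block is given beside the unblocked one. Array values are given for genes with an adjusted p under 0.1 in either fit, for the catalytic subunits, and for the largest difference of each list. Psma2 was added after its values were seen, for its spread. Of the symbols on the lists, 20 had no row with 1 symbol under that name. Some of these are other names of genes that were measured, such as Ufd1l for Ufd1 and Shfm1 for Sem1. The rest were not analysed here. Promoter windows are from RefSeq (GRCm38.p6). Alternatives were other row filters, including the variance cut-off of 0.5 of the methods read as a quantile, median centring, cyclic loess, other call rules, the mean of a symbol's rows, and leaving out each array. The fit was tested on simulated arrays drawn independently, so that test does not cover the resemblance of same-numbered arrays.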

Additional observations from a re-analysis of the deposited data

How the results depend on the processing

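No proteasome gene was called at 1.3-fold under any alternative, nor on leaving out any array (range 0 to 0 in both directions). The number past an adjusted p of 0.1 at any fold, 1 higher (Psmc2) and 0 lower, was 0 higher when all rows were tested, with either variance filter, at an adjusted p under 0.05, with trend and robust moderation and without any 1 array (range 0 to 0). With the replicate block it was 7 higher and 1 lower. Without the fold cut-off, 1 proteasome gene was called higher. The call of Ufd1 was lost (0 called) with all rows (adjusted p = 0.141), with the methods' filter (0.309) and with cyclic loess (0.336 on the log2 scale, below the fold), and partner calls ranged from 0 to 1 on leaving out an array. The variance filters tested 24 and 28 of the 50 genes, and with fewer genes the medians became 0.140 for all genes tested, 0.117 for the core and 0.161 for the base with either filter, and for the lid 0.0887 with the methods' filter and 0.155 with the filter on named rows. Under cyclic loess Psmc5 (-0.0213), Psma4 (-0.00863), Psma7 (-0.00439) and Psmd3 (-0.0256) changed sign, and so did Psme4 (0.000143) under median centring. Leaving out 1 array changed the sign of 19 genes, whose differences then ranged, in log2, as follows: Psma2 from -0.174 to 0.166, Psma4 from -0.0413 to 0.0991, Psma6 from -0.00111 to 0.268, Psma7 from -0.0152 to 0.0852, Psmb10 from -0.188 to 0.0356, Psmb8 from -0.0229 to 0.139, Psmc5 from -0.0185 to 0.0879, Psmc6 from -0.0234 to 0.199, Psmd1 from -0.114 to 0.0658, Psmd10 from -0.0101 to 0.132, Psmd13 from -0.15 to 0.0225, Psmd14 from -0.0353 to 0.00752, Psmd3 from -0.0687 to 0.134, Psmd8 from -0.049 to 0.0206, Psmd9 from -0.000987 to 0.111, Psme2 from -0.0200 to 0.0692, Psme3 from -0.0295 to 0.0472, Psme4 from -0.0598 to 0.0636, Psmg3 from -0.0203 to 0.0568. The other 31 kept their sign in every alternative that tested them, and on leaving out an array the median ranged from 0.04 to 0.08 for all 50 genes, 0.01 to 0.07 for the core, 0.08 to 0.14 for the base, 0.02 to 0.07 for the lid and 0.03 to 0.14 for the immunoproteasome. The 433 calls over all rows were 147, 161 and 219 without knockdown array 2, control array 2 and control array 3, 28 with all rows tested and 12 with the methods' filter. The replicate block changed no call at 1.3-fold among the proteasome and partner genes, and the marker Th was called only with the block. A 3 against 3 design on log2 intensities limits what can be seen to the intervals given.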
